A study of Mus musculus with 9 samples.

Results

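Genes that skeletal muscle fibres switch on or off when they lose their nerve were examined in white gastrocnemius muscle, taken from wild-type mice and from mice without a working Gaa gene. Gaa encodes acid alpha-glucosidase, which degrades glycogen in lysosomes, and mice without it model Pompe disease, a glycogen storage disorder of muscle. The 9 genes are Myog, Runx1, Hdac4, Hdac9, Dach2, Gadd45a, Ncam1, Ankrd1 and Cdkn1a. They were taken by symbol from a table of 18062 genes, with the values of all transcripts of a symbol summed, and 8 of the 9 passed the expression filter that 11032 genes passed. The exception was Dach2, whose mean over all libraries was 0.49 RPKM against a minimum of 0.5. RPKM are reads scaled to transcript length and to the mapped reads of the library, so levels can be set side by side between genes. A value after ± is the SD over the 5 knock-out or the 4 wild-type libraries.

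The comparison was of 5 knock-out libraries from mice of 5 months with 4 wild-type libraries, of which 2 came from mice of 5 months and 2 from mice of 6 months. The knock-out is a targeted disruption of exon 6 of Gaa, with loxP sites in the introns on both sides. The colony was of mixed BL6/129j background and had been mated brother to sister for more than 20 generations, and the labels call every sample mixed background. They do not say whether the wild-type mice were littermates, and no age is attached to the wild-type values (wt1, wt2, wt3 and wt4), so both ages form 1 arm and the part of age could not be fitted. The libraries are numbered without a mention of separate animals, so a p-value here refers to the scatter among libraries, which may be technical.

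In innervated muscle, electrical activity keeps the histone deacetylase Hdac4 low and the corepressor Dach2 holds down the gene of myogenin. After denervation Hdac4 accumulates, Dach2 is repressed, and myogenin (Myog), a transcription factor of the MyoD family, turns on the genes of the acetylcholine receptor and of ubiquitin ligases that drive atrophy. Runx1, Ncam1, Gadd45a, Cdkn1a and Ankrd1 are further genes known to respond to denervation, each with roles outside it.

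As a check on the labels, Gaa lay between 3.11 and 3.64 RPKM in the knock-out and between 46.0 and 56.0 RPKM in the wild type, so every library had the level of its genotype. Judged from the spacing of the smallest values, each RPKM of a 1 kilobase transcript was worth 17.6 to 37.6 reads (knock-out) or 37.2 to 64.3 reads (wild type), with ko3 the shallowest and wt3 the deepest library. Fast white fibre markers were abundant in both genotypes: the 10 genes summed to 107544 to 123097 RPKM in knock-out libraries and 101579 to 109599.9 in the wild type. Differences between the genotypes were widespread: 51.8% of the tested genes passed the threshold, 37.0% upward and 14.8% downward (knock-out relative to wild type, limma with Benjamini-Hochberg adjustment). On the log2 scale the median tested gene stood 0.12 above the wild type. With the libraries centred on that median, 25.1% were called higher and 25.0% lower, and with quantile normalization 24.0% and 27.7%.

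Promoters of 3 genes that rose (Myog, Hdac9 and Runx1) and of Ankrd1, which did not pass the test, are shown to compare the letters that factors of the pathway read. Each runs from 250 bases before to 50 bases after the start site of RefSeq (build GRCm38.p6). The deposited values were made on mm9, so these coordinates belong to the sequence only. The table used held promoters of 8 of the 9 genes. Capitals mark the E-box CANNTG, which myogenin and its relatives bind, and CTANNNNTA, a loose form of the MEF2 core. The strict form of that core has A or T at each N. Also marked are TCAGGTT, the start of the MEF3 site, which SIX-family factors bind, and TGTGGT, the core of the Runx site. The last is CATTCC, the MCAT box of TEAD factors. Matches on either strand are marked. The Myog promoter is chr1:134289754-134290053 on the plus strand, the Hdac9 promoter chr12:34528840-34529139 on the minus strand, the Runx1 promoter (the distal of 2 in the table) chr16:92826025-92826324 on the minus strand, and the Ankrd1 promoter chr19:36119795-36120094 on the minus strand, a window that does not hold the start of the measured Ankrd1 transcript.
Myog: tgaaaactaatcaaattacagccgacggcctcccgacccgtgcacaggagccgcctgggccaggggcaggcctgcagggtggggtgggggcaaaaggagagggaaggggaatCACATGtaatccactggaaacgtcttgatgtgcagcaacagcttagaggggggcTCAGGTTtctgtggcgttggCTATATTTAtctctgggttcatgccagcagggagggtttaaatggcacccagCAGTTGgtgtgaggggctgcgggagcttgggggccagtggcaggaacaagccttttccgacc
Hdac9: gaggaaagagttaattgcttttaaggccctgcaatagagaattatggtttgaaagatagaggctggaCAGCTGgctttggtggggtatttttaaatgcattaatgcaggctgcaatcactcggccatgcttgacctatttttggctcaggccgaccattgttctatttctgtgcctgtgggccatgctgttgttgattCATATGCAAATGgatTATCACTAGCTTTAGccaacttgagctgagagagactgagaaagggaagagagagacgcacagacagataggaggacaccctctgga
Runx1: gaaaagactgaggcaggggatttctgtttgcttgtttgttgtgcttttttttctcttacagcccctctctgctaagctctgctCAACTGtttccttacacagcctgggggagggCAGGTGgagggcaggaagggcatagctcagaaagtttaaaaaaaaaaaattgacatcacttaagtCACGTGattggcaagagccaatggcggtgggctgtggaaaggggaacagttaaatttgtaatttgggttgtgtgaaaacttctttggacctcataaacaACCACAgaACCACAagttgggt
Ankrd1: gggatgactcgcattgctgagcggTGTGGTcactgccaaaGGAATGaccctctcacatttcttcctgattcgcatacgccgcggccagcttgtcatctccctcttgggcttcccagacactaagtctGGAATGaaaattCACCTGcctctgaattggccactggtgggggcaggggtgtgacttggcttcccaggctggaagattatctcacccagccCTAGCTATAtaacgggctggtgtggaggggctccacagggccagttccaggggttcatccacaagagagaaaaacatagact

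The Myog promoter held a MEF2 core (CTATATTTA, from -64 to -56 before the start), a MEF3 start (TCAGGTT, from -84 to -78) and 2 E-boxes, CACATG at -138 and CAGTTG at -12. Of 32851 promoters of the same length, 21.0% held a loose MEF2 core, 4.07% the MEF3 start and 72.3% an E-box. In the Hdac9 promoter 3 loose MEF2 core matches overlapped between -37 and -23, with 3 E-boxes, of which CAGCTG lay at -183. A further Hdac9 window, where the measured transcript does not start, held 2 E-boxes and none of the other letters. The distal Runx1 promoter held 3 E-boxes and, after the start, 2 Runx cores, which 16.8% of promoters hold. The proximal Runx1 promoter held an MCAT box alone. The Ankrd1 promoter held 4 kinds of match: an E-box, a loose MEF2 core, a Runx core and 2 MCAT boxes, which 14.7% of promoters hold. Of the 2 Dach2 windows, 1 held 2 loose MEF2 cores, an E-box and an MCAT box and the other a Runx core, while Cdkn1a and Gadd45a held E-boxes alone and Hdac4 none of these letters. Only the MEF2 match of Myog has A or T at each N. Those of Hdac9, Ankrd1 and Dach2 hold G or C there and are not the strict core. Matches were thus found in genes that rose and in genes that did not pass a test. A match describes these letters only, and binding was not measured.

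Of the 8 genes tested, 7 rose in the knock-out and none fell, against 37.0% of all tested genes called higher. In these 7 every knock-out value lay above every wild-type value, as it did for 30.9% of tested genes. The change was at least 2-fold for 5 of them (Ncam1, Runx1, Cdkn1a, Gadd45a and Myog), where 4.80% of tested genes were at least 2-fold higher. Runx1 passed the filter through the knock-out (1.5 RPKM, against 0.24 in the wild type), so its place in these counts leans on the group where it is high. With no filter the number of the 9 genes called higher was also 7. Ankrd1 and Dach2 did not pass a test. The 9 genes were chosen with earlier results on these libraries known, so the counts describe the list and do not test it.

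**Figure D1:**
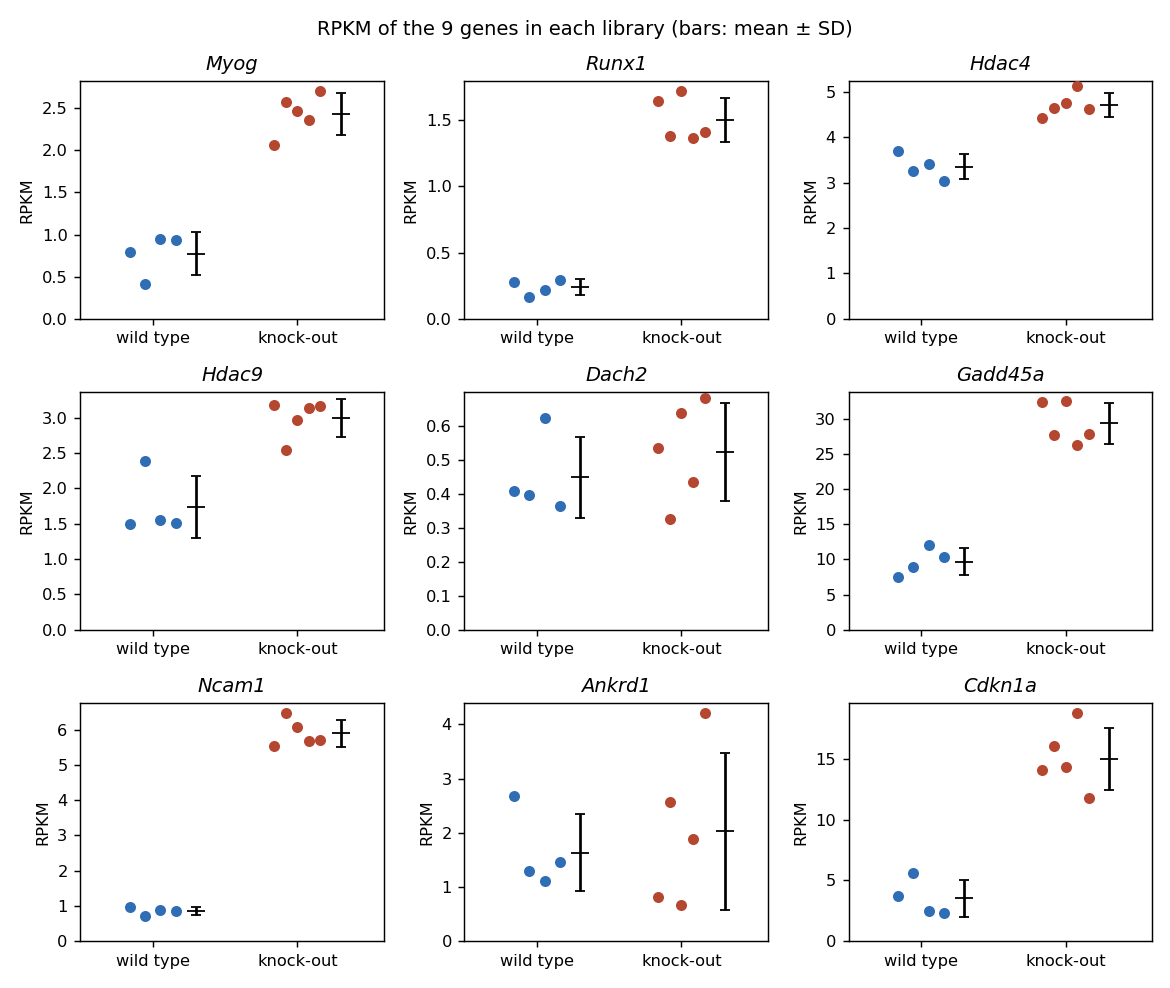
RPKM (vertical axis, from 0) of the 9 genes in the 4 wild-type libraries (blue, wt1 to wt4 from left to right) and the 5 knock-out libraries (red, ko1 to ko5), with the mean and SD of each group as a bar. The groups do not overlap for 7 genes, while Dach2 and Ankrd1 overlap, with Ankrd1 between 0.67 and 4.21 RPKM in the knock-out.

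Among the transcription factors, Myog was read at 2.06, 2.57, 2.47, 2.36 and 2.71 RPKM in ko1 to ko5 and at 0.797, 0.41, 0.951 and 0.935 RPKM in wt1 to wt4. All knock-out libraries were high and close together, and wt2 was the lowest. The log2 fold change of 1.59 (SE 0.19, limma adjusted p = 3.9e-05) was one that 1.87% of tested genes exceeded. The level is low: its single transcript drew an estimated 65 to 137 reads per knock-out library and 23 to 91 per wild-type library.

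Runx1 encodes a DNA-binding factor best known from blood formation, which denervated fibres also make and which limits their wasting. It was at 1.65, 1.38, 1.72, 1.37 and 1.41 RPKM in knock-out libraries and at 0.279, 0.165, 0.22 and 0.295 RPKM in the wild type. The groups were far apart, with the lowest knock-out value, of ko4, well above the highest wild-type value, of wt4. The log2 fold change of 2.25 (SE 0.15) passed the threshold (limma adjusted p = 2.8e-07), and was 1.01 with a pseudocount of 1 in place of 0.1, the wild-type level being near the smaller pseudocount. Macrophages also make Runx1, and the summed macrophage markers were higher too, at 82.5 to 139.6 RPKM against 35.3 to 44.6; their part in the result was not tested. Cbfb, the subunit that RUNX proteins need to bind DNA firmly, went the other way: it fell from 46.0 ± 2.84 to 30.3 ± 2.57 RPKM (SD, n = 4 and 5; log2 fold change -0.60, limma adjusted p = 2.5e-05).

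Hdac4 and Hdac9, class IIa deacetylases that repress MEF2 factors, rose by smaller steps. Hdac4 was at 4.43, 4.64, 4.76, 5.14 and 4.62 RPKM in knock-out libraries and at 3.7, 3.26, 3.42 and 3.04 RPKM in the wild type. The groups parted by less than 1 RPKM, but the spread was small and the log2 fold change of 0.48 (SE 0.07) passed the threshold (limma adjusted p = 1.9e-04). It was 0.35 both with the libraries centred on their median gene and with quantile normalization, and it passed the threshold under both. Hdac9, whose own transcription depends on MEF2, was at 3.18, 2.54, 2.96, 3.13 and 3.16 RPKM in the knock-out. In the wild type it was at 1.49, 2.39, 1.55 and 1.51 RPKM, and the nearest values of the groups were those of ko2 and wt2. It rose by a log2 fold change of 0.78 (SE 0.13; limma adjusted p = 5.1e-04). The table holds 1 Hdac9 transcript, so the full enzyme and the short form MITR, which lacks the catalytic domain, are not separated here.

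Dach2, the corepressor that denervation is known to lower, was at 0.534, 0.327, 0.637, 0.436 and 0.682 RPKM in knock-out libraries and at 0.409, 0.398, 0.623 and 0.364 RPKM in the wild type. The ranges overlapped almost fully, and the exact two-sided permutation test of the difference of 0.17 on the log2 scale gave p = 0.4444. When all genes were fitted without the filter, its difference had a 95% interval of -0.3 to 0.65 (limma adjusted p = 0.57), so a fall of more than 0.3 lies outside that interval. Dach1, its relative, was also below the filter, at 0.331 ± 0.0687 RPKM in knock-out libraries (SD, n = 5) and 0.666 ± 0.212 in the wild type (SD, n = 4).

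Gadd45a, a small stress-induced protein that binds and activates the kinase Map3k4 and is sufficient to cause fibre atrophy, was the most abundant of the 9 genes. It was at 32.3, 27.7, 32.5, 26.2 and 27.8 RPKM in knock-out libraries and at 7.51, 8.92, 12 and 10.3 RPKM in the wild type. The groups were well apart, and the lowest knock-out value was that of ko4. Within the wild type, wt1 and wt2 lay below wt3 and wt4. The rise was 1.6 on the log2 scale (SE 0.12; limma adjusted p = 9.2e-07).

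Cdkn1a encodes p21, an inhibitor of cyclin-dependent kinases that p53 and MyoD induce. It was at 14.1, 16.1, 14.4, 18.8 and 11.8 RPKM in knock-out libraries and at 3.68, 5.65, 2.47 and 2.3 RPKM in the wild type, where wt1 and wt2 now lay above wt3 and wt4. The log2 fold change was 2.14 (SE 0.23) with a limma adjusted p of 1.5e-05. Leaving out wt3 and wt4 gave 1.68, and leaving out wt1 and wt2 gave 2.59.

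Ncam1, the neural cell adhesion molecule, is concentrated at the synapse in innervated fibres and spreads over the fibre surface after denervation. It was at 5.54, 6.47, 6.07, 5.7 and 5.72 RPKM in knock-out libraries and at 0.962, 0.704, 0.873 and 0.848 RPKM in the wild type. The groups were far apart and each was narrow. The log2 fold change of 2.67 (SE 0.09, limma adjusted p = 1.5e-09) was the largest of the 8 tested genes, and 0.453% of all tested genes exceeded it.

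Ankrd1, a titin-binding ankyrin repeat protein of the nucleus and the sarcomere that responds to stretch and injury, did not part the genotypes. It was at 0.804, 2.56, 0.67, 1.88 and 4.21 RPKM in knock-out libraries and at 2.67, 1.29, 1.11 and 1.46 RPKM in the wild type. The knock-out libraries spanned the whole wild-type range, with ko1 and ko3 below and ko5 above it, and the knock-out SD was 1.45 RPKM on a mean of 2.02. The log2 fold change of 0.08 had a 95% interval of -0.92 to 1.08 (limma adjusted p = 0.89), so with this spread a change of up to about 2-fold in either direction was not excluded.

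**Figure D2:**
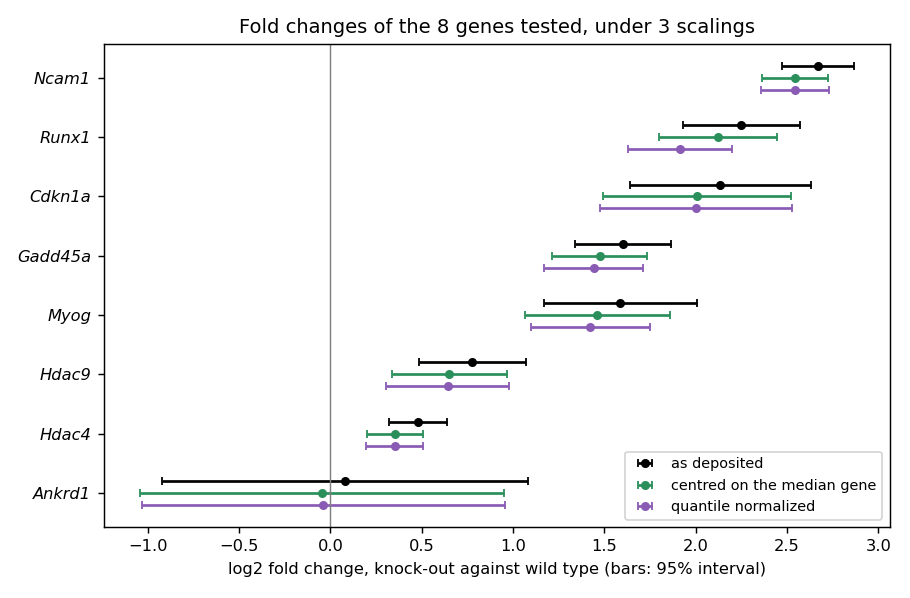
Log2 fold change (horizontal axis, knock-out against wild type) with its 95% interval for the 8 tested genes, from the values as deposited (black), centred on the median gene (green) and quantile normalized (purple). Under each of the 3 scalings 7 intervals lie above 0, and that of Ankrd1 spans 0. The fold changes of those 7 genes run from 0.35 for Hdac4 centred to 2.67 for Ncam1 as deposited.

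The order of the levels changed with genotype. In the wild type Gadd45a led at 9.69 ± 1.93 RPKM (SD, n = 4), followed by Cdkn1a at 3.52 ± 1.54 and Hdac4 at 3.36 ± 0.275, whose ranges overlapped, and Runx1 was last at 0.24 ± 0.0593. In the knock-out Gadd45a stood at 29.3 ± 2.91 RPKM (SD, n = 5), Cdkn1a at 15.0 ± 2.63, Ncam1 at 5.90 ± 0.375 and Hdac4 at 4.72 ± 0.264, with no overlap between neighbours. Ncam1 had been below Hdac4 in every wild-type library and was above it in every knock-out library. Ncam1 and Myog, at means of 0.847 and 0.773 RPKM, overlapped in the wild type, whereas Dach2, at 0.448, lay below Ncam1 in all 4 libraries.

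Several of the genes have more than 1 RefSeq transcript in the table, whose values are estimates that share reads. The single-transcript fit called 26.3% of 16773 transcripts higher and 10.4% lower. Of the 3 Ncam1 transcripts, NM_010875 rose from 0.667 ± 0.0964 to 5.32 ± 0.342 RPKM (log2 fold change 2.83, limma adjusted p = 2.3e-08) and NM_001081445 rose from 0.175 to 0.513 RPKM (log2 fold change 1.17, limma adjusted p = 3.9e-04). NM_001113204 was below the transcript filter of 0.1 RPKM. NM_010875 made up 88.9% to 91.5% of the summed Ncam1 level in the knock-out. In the wild type its share was 83.9% and 84.1% in wt1 and wt2 and 74.2% and 73.1% in wt3 and wt4. The exact permutation p of this difference was 0.0079, or 0.047 adjusted over the 6 transcript shares computed. The shares were added after the values had been seen.

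**Figure D3:**
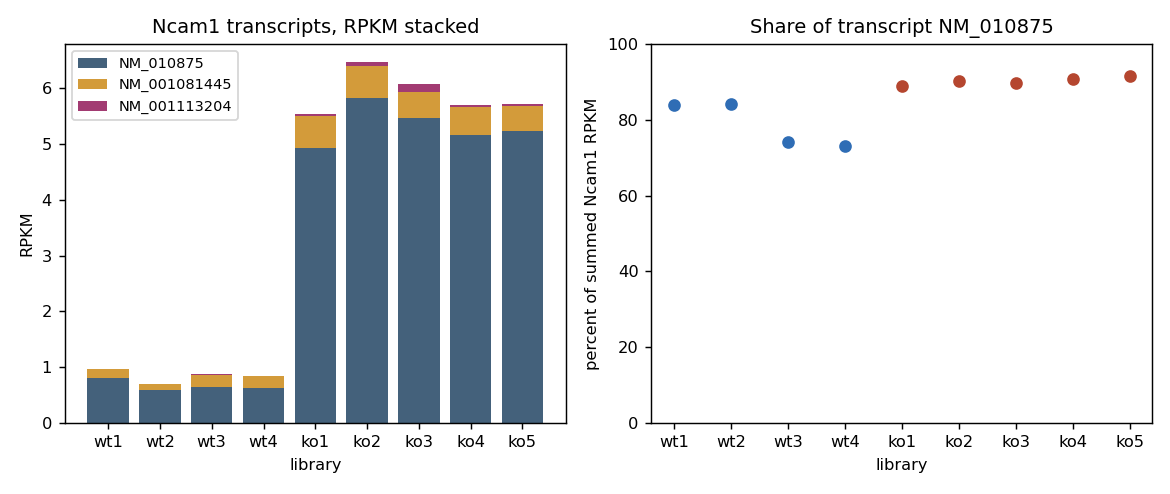
Left, RPKM of the 3 Ncam1 transcripts stacked for each library, in total 0.704 to 0.962 in the wild type and 5.54 to 6.47 in the knock-out. Right, the share of NM_010875 in that total, in percent, with wild-type libraries in blue (73.1 to 84.1) and knock-out libraries in red (88.9 to 91.5).

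The table holds 4 Runx1 transcripts, of which 2 start at the distal and 1 at the proximal promoter. NM_001111021, which starts in the window of the distal promoter printed above, was at 0.371 ± 0.13 RPKM in knock-out libraries (SD, n = 5) and 0.0562 ± 0.0501 in the wild type (SD, n = 4). NM_009821, from the proximal promoter, was at 0.297 ± 0.106 and 0.0469 ± 0.0278 RPKM. Both rose (limma adjusted p = 0.0011 and 0.0014), as did the most abundant, NM_001111023, from 0.115 to 0.715 RPKM (limma adjusted p = 2.2e-05). NM_001111021 and NM_009821 passed the transcript filter of 0.1 RPKM through the knock-out, as their wild-type means were below it. Their shares scattered between 4.87% and 80.7% in the wild type and none of the 3 shares computed differed past the threshold (exact permutation p from 0.7143 to 0.8175), at an estimated 2 to 28 reads per transcript in the wild type. For Cdkn1a, NM_007669 made up 96.8% to 99.2% in all 9 libraries. The Dach2 transcripts NM_001142570 and NM_033605 did not pass the test (limma adjusted p = 0.87 and 0.18).

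Each gene was also set against close relatives in the same library, which removes any scaling of the library apart from the pseudocount of 0.1. The 13 ratios were chosen after the values had been seen, were tested by exact two-sided permutation, whose smallest possible p is 0.0079, and were adjusted over the 13. Runx1 rose against Cbfb by 2.85 on the log2 scale (adjusted p = 0.021), in 5 of 5 knock-out libraries. Cdkn1a rose by 2.24 against Cdkn1b and by 1.95 against Cdkn1c, the p27 and p57 inhibitors (adjusted p = 0.021 for both). Their own levels were 9.65 ± 0.72 RPKM in knock-out libraries and 10.4 ± 0.804 in the wild type for Cdkn1b, and 8.21 ± 1.15 and 7.19 ± 0.708 for Cdkn1c, neither past the threshold, although Cdkn1b was lower past it with centring (log2 fold change -0.23) and with quantile normalization (-0.24).

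Within the Gadd45 family the ratio of Gadd45a rose by 1.73 against Gadd45g (adjusted p = 0.021) and by 1.18 against Gadd45b (adjusted p = 0.029). Gadd45g was at 74.4 ± 17.1 RPKM in knock-out libraries and 84.8 ± 33.1 in the wild type, and Gadd45b at 5.15 ± 1.95 and 3.71 ± 0.935 RPKM. Without wt3 and wt4 the log2 fold change of Gadd45g was -0.62 (limma adjusted p = 0.014), and without wt1 and wt2 it was 0.37. Gadd45g stayed the more abundant of the family, but its lead over Gadd45a shrank in all 5 knock-out libraries.

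Hdac4 rose by 0.35 and Hdac9 by 0.65 against Hdac5, the third muscle class IIa enzyme (adjusted p = 0.029 and 0.034), while Hdac9 against Hdac4 was at 0.30 (adjusted p = 0.15), or 0.46 without wt2 (unadjusted exact p = 0.018). Hdac5 itself was at 12.8 ± 1.15 RPKM in knock-out libraries and 11.7 ± 1.51 in the wild type. The first ratio was no longer past the threshold without wt1 and wt2, and the second without ko1, ko3, ko4, ko5 or wt3 and wt4 (unadjusted p up to 0.095), where the ratio stayed between 0.61 and 0.64 and fewer splits were possible.

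Among the myogenic factors, Myog rose by 1.07 against Myf6 (adjusted p = 0.021), the MyoD relative most abundant in adult fibres. With a pseudocount of 1 this ratio was no longer past the threshold (0.45, unadjusted p = 0.079). Myf6 itself rose from 50.7 to 71.6 RPKM (limma adjusted p = 0.004). Against Myod1, which was at 7.20 RPKM in knock-out libraries and 4.22 in the wild type, the ratio of Myog was 0.71 higher (adjusted p = 0.041), a call lost without any of 7 single libraries, at values between 0.53 and 0.72 and with fewer splits possible. It was 0.23 with a pseudocount of 1 (unadjusted p = 0.37) and 0.41 without wt3 and wt4 (unadjusted p = 0.19). Against Myf5, whose gene also rose, the difference of 0.30 did not pass (adjusted p = 0.084). It was 0.40 without wt1 and 0.42 with a pseudocount of 1 (unadjusted exact p = 0.036 and 0.0079). Ankrd1 fell by 1.25 against Ankrd2, its relative (adjusted p = 0.034), a call lost without any of 7 single libraries at values between -1.36 and -1.07, and did not part from Ankrd23 (a difference of -0.12, adjusted p = 0.84).

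**Figure D4:**
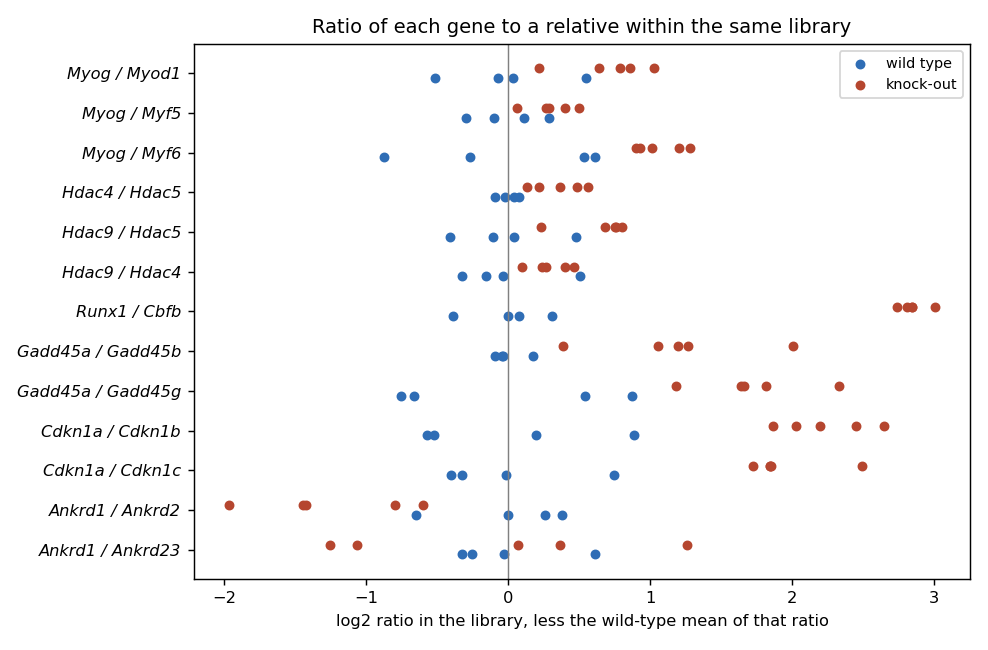
Log2 ratio of each gene to a relative within the same library (horizontal axis, less the wild-type mean of that ratio), wild type in blue and knock-out in red. Runx1 to Cbfb, at 2.85, and Cdkn1a to Cdkn1b, at 2.24, are the furthest from the wild type, and Ankrd1 to Ankrd2 is the one ratio on the lower side that passed.

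The genes around the 9 were read from 7 lists of 127 different genes, of which 105 were tested: 44 rose, 14 fell and the median was 0.20, beside 37.0%, 14.8% and 0.12 for all tested genes. Targets of myogenin at the synapse and in atrophy had 6 of 10 tested members higher and none lower (1 lower with quantile normalization), with a median of 0.73. The acetylcholine receptor subunits Chrnd, Chrna1 and Chrnb1 rose to 9.41 ± 0.861, 10.5 ± 1.11 and 15.9 ± 1.38 RPKM (SD, n = 5) from 0.551, 2.09 and 7.58 RPKM. Trim63, the ubiquitin ligase MuRF1, rose from 93.0 ± 25.9 to 193 ± 16.9 RPKM (limma adjusted p = 8.2e-05). The other ligase, Fbxo32 (atrogin-1), did not: it was at 53.9 to 80.1 RPKM in knock-out libraries and 56.0 to 120.1 in the wild type (limma adjusted p = 0.16). Its level was high in wt1 and wt2. The log2 fold change was -0.54 without wt4 and -0.79 without wt3 and wt4 (limma adjusted p = 0.034 and 0.001), but 0.07 without wt1 and wt2. The receptor kinase Musk was at 8.82 ± 0.866 RPKM in knock-out libraries and 8.46 ± 1.82 in the wild type, with an interval of -0.20 to 0.36 on the log2 scale. Its log2 fold change was 0.34 without wt1 and wt2 (limma adjusted p = 0.018) and -0.19 without wt3 and wt4. Trim63, Fbxo32 and Musk were named after their values had been seen. Chrng, the embryonic receptor subunit, was below the filter, at 0.088 to 0.274 RPKM in knock-out libraries and 0.0109 to 0.0419 in the wild type (exact permutation p = 0.0079).

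Other genes known to respond to denervation had 8 of 16 tested members higher and none lower (8 and 1 with the libraries centred, 8 and 2 with quantile normalization), with a median of 0.66. Over all tested genes the shares were 37.0% higher and 14.8% lower (25.1% and 25.0% centred, 24.0% and 27.7% with quantile normalization). Rrad, a small GTPase, rose from 1.02 ± 0.329 to 10.7 ± 1.17 RPKM (limma adjusted p = 4.8e-08). Kcnn3, the SK3 potassium channel that gives denervated muscle its apamin sensitivity, rose from 0.134 ± 0.0142 to 1.22 ± 0.146 RPKM (limma adjusted p = 6.3e-08). Kcnn3 and Igfn1 (1.74 RPKM, against 0.369 in the wild type), both among those called, passed the filter through the knock-out. Sln, the sarcolipin gene, rose from 2.0 ± 0.629 to 31.1 ± 7.6 RPKM.

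Upstream regulators were called at shares near those of all tested genes (37.0% higher and 14.8% lower). Of 15 tested deacetylase, MEF2 and calcium-calmodulin kinase genes 5 rose and 3 fell (2 and 3 with centring, 2 and 4 with quantile normalization), with a median of 0.12. Hdac7, another class IIa enzyme, rose from 2.17 ± 0.427 to 4.04 ± 0.527 RPKM and Camk2d, a kinase of that group, from 10.5 ± 0.799 to 18 ± 1.64. Mef2d rose from 26.7 to 32.5 RPKM, a call that ended with centring, while Mef2a fell from 21.4 to 18 RPKM and the corepressor Ncor1 from 11.3 to 9.62. The call for Mef2a ended without wt1 or wt2, and that for Ncor1 without wt3 and wt4. Of 17 myogenic and Six-Eya factors 7 rose and 3 fell (5 and 4 with centring, 5 and 5 with quantile normalization), with a median of 0.16. Six2 rose from 4.88 ± 0.581 to 10.7 ± 1.24 RPKM and Myf5 from 0.334 ± 0.113 to 0.932 ± 0.0629, while Id3, an inhibitor of myogenic factors, fell from 8.57 ± 0.63 to 4.6 ± 0.99. Myf5 passed the filter through the knock-out. Eya3 also rose, from 2.38 to 3.23 RPKM, a call that ended with its most abundant transcript alone.

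Of 12 Ncam1 partners 4 were tested and called higher, a count that depends on the filter: it was 5 higher and 1 lower with no filter, and 2 higher at a mean of at least 1 RPKM. Fgfr4 passed the filter through the knock-out (0.737 RPKM, against 0.299 in the wild type), and Cntn1, below the filter, was lower in every knock-out library (0.00689 against 0.0586 RPKM; exact permutation p = 0.0079). Among those called were the receptor Fgfr1 to 15.2 ± 0.951 RPKM (log2 fold change 0.59), the kinase Fyn from 1.57 to 2.74 and the GDNF receptor Gfra1 from 0.666 to 1.03. St8sia2 and St8sia4, which add polysialic acid to Ncam1, were at no more than 0.0789 and 0.758 RPKM in any library. In the ankyrin repeat and YAP list 9 of 19 rose and 4 fell (6 and 6 under both other scalings), beside 37.0% and 14.8% of all tested genes (25.1% and 25.0% centred). Wwtr1 (TAZ), Tead4 and Vgll2 rose 1.54-fold, 1.95-fold and 2.32-fold, while Amotl1 and Amotl2, which hold YAP in the cytoplasm, fell to 49.8 and 1.73 RPKM from 68.4 and 3.13. Tead1 also fell, from 23.3 to 18.1 RPKM. Of the other genes on this list, Yap1 and Axl rose (limma adjusted p = 8.0e-05 and 0.011), and Ctgf and Cyr61 did not pass (limma adjusted p = 0.42 and 0.78). YAP activity was not tested. Ankrd2 rose from 18.1 ± 14.6 to 41.6 ± 20.3 RPKM (limma adjusted p = 0.021), a call that ended without ko2, ko5, wt2, wt3 or wt4.

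The p53 targets and kinase inhibitors around Cdkn1a had 5 of 24 tested members higher and 4 lower (4 and 9 with centring, 4 and 10 with quantile normalization), with a median of -0.03, and 5 of 24 is a smaller share than the 37.0% of all tested genes. Trp53 itself rose from 2.90 ± 0.142 to 4.93 ± 0.466 RPKM, and Pcna and Bax rose 1.32-fold and 1.53-fold. Ei24 and Ccng1, both p53 targets, fell from 27.0 to 20.6 and from 314 to 243 RPKM. Mdm2, the classical p53 target, was at 13.8 ± 0.828 RPKM in knock-out libraries and 13.4 ± 0.274 in the wild type, with an interval of -0.09 to 0.15. Map3k4, the kinase that Gadd45a activates, fell from 7.02 ± 0.182 to 5.82 ± 0.459 RPKM (limma adjusted p = 0.0052). Mdm2 and Map3k4 were named after their values had been seen.

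**Figure D5:**
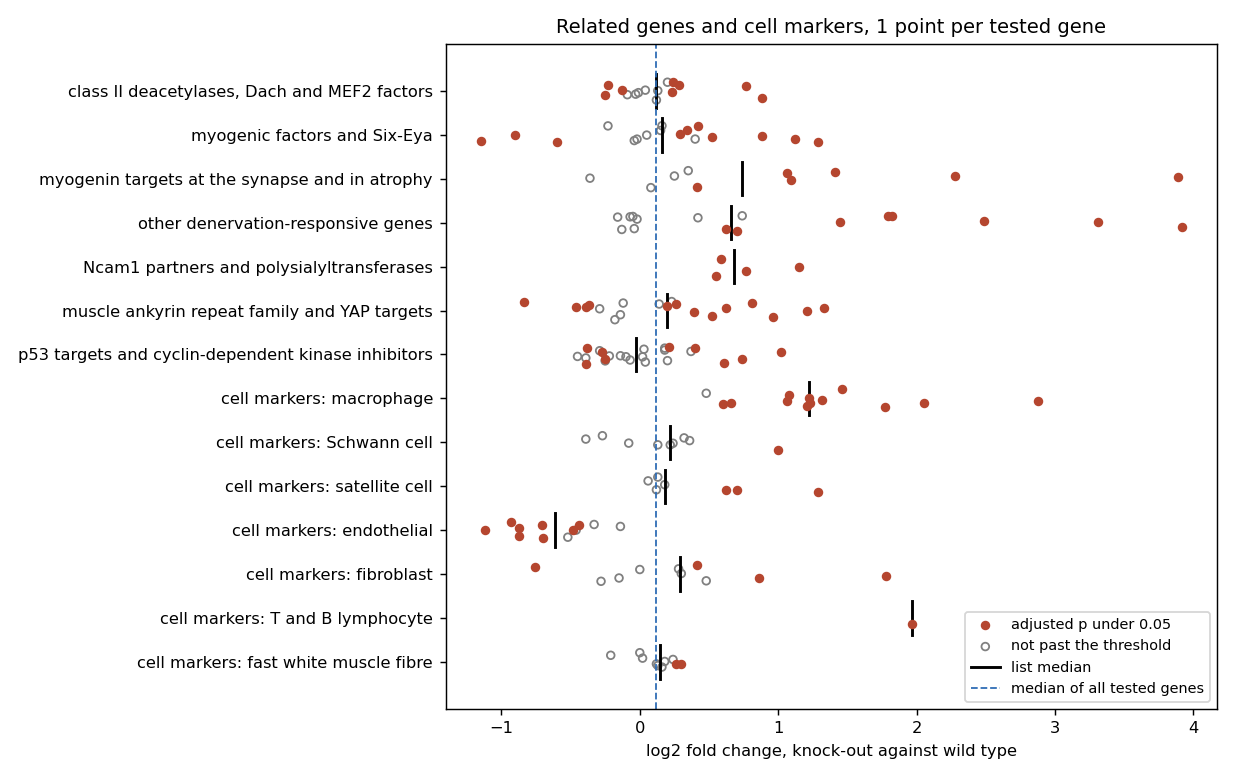
Log2 fold change (horizontal axis) of each tested gene of the 7 lists of related genes and 7 lists of cell markers, red where adjusted p was below 0.05, with the list median as a black bar and the median of all tested genes (0.12) as a dashed line. Targets of myogenin reach 3.89 (Chrnd), and the median of macrophage markers is 1.22.

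Other cells of the muscle also express some of the 9 genes, and their markers were read beside them. In whole tissue a change in the number of cells and a change in RNA per cell cannot be told apart. Of all tested genes 37.0% were called higher and 14.8% lower (25.1% and 25.0% centred, 24.0% and 27.7% with quantile normalization). The shares of satellite cell and fibroblast markers called higher were near that 37.0%, and the share of Schwann cell markers was below it. Of 13 tested macrophage markers, which matter for Runx1 and Cdkn1a, 12 rose and none fell, and the 15 genes of the list summed to 82.5 to 139.6 RPKM in knock-out libraries and 35.3 to 44.6 in the wild type, led by Lyz2 (36.7 against 14.4) and C1qb (11.7 against 4.95). Emr1, Mpeg1 and Itgb2, among those called, passed the filter through the knock-out (wild-type means of 0.368, 0.382 and 0.41 RPKM). Of 9 tested Schwann cell markers, which matter for Ncam1, 1 rose and none fell, and the sums overlapped at 29.9 to 62.6 and 25.6 to 60.7 RPKM, led by Pmp22 and Mbp. Of 7 tested satellite cell markers, which matter for Myog and Ncam1, 3 rose (Myf5, Vcam1 and Cdh15) and none fell. Myf5 passed the filter through the knock-out. The sums did not overlap, at 48.6 to 56 and 43.1 to 46.1 RPKM. They were led by Itga7 and Cd34, which did not pass (limma adjusted p = 0.22 and 0.31), so the sums mostly describe genes that were not called. Myf5 and Cdh15 of this list stand in other lists too. Pax7, which defines satellite cells, was below the filter at 0.378 to 0.569 RPKM in knock-out libraries and 0.0802 to 0.265 in the wild type (exact permutation p = 0.0079). Calcr, also below it, was at 0.0992 to 0.208 and 0.0534 to 0.0845 RPKM (exact permutation p = 0.0159). Endothelial markers had 8 of 12 lower and none higher (11 lower under both other scalings, 4 without wt3 and wt4). The most abundant were Pecam1, which did not pass (limma adjusted p = 0.15), and Cdh5. Fibroblast markers had 3 of 10 higher and 1 lower, led by Dcn and Col3a1, with sums of 297 to 397 and 196 to 289 RPKM. Of the lymphocyte markers 9 of 10 were below the filter. Cd3e passed it through the knock-out (a wild-type mean of 0.409 RPKM) and rose. It was at 1.13 to 1.61 RPKM in the knock-out, but at 0.0373 and 0.0551 in wt1 and wt2 and at 0.711 and 0.832 in wt3 and wt4, and at a mean of 0.909 it was not tested under the stricter filter of 1 RPKM. Cd79b was next at no more than 0.245 RPKM in any library. No marker was at 0 in all 9 libraries. The part of these cells in the changes of the 9 genes was not tested.

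The genes whose profile over the 9 libraries came closest to 3 of the members were found by the root mean square difference of log2 values, each less its own mean. For Myog they were Slc43a2 (0.13), Ampd3 (0.16) and Lum (0.16), where the median over all tested genes was 0.79. For Runx1 they were Fyb (0.15), Cgref1 (0.16) and Tlr2 (0.17), and for Ncam1 they were Anxa4 (0.11), Park2 (0.13) and Ttc9 (0.13). Fyb and Tlr2 passed the filter through the knock-out (wild-type means of 0.133 and 0.205 RPKM), as Runx1 did. The measure takes in the genotype difference of each gene. Ampd3, an AMP deaminase, is also on the list of denervation-responsive genes, and Lum, the proteoglycan lumican, on that of fibroblast markers.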

How the data were processed

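Total RNA of white gastrocnemius was sequenced in 5 knock-out and 4 wild-type samples from TruSeq libraries, per the labels' protocols, which do not say whether each sample is a separate mouse. The deposited table gives RPKM, normalized by the authors, for 23665 RefSeq transcripts. TopHat 1.3.2, Bowtie 0.12.7.0, Partek 6.6 and mm9 are named per the submitters' processing notes, and the counting rule is not given in the sources used here. Raw counts were not used here, so depth was estimated from the steps in low values, of which 70.8% to 74.2% per library lay within 0.1 of a whole read.

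Values were summed per symbol to 18062 genes. For the 11032 genes with a mean of at least 0.5 RPKM, limma 3.58.1 (R 4.3.3) was run on values of log2(RPKM + 0.1) (trend, two-sided, Benjamini-Hochberg threshold 0.05), and a fold change on this scale understates that of low genes. Transcripts with a mean of at least 0.1 RPKM were fitted in the same way. Single values were tested by exact permutation over 126 splits in Python 3.11.15. On simulated data for this comparison with 11032 genes, changes of 0.5, 1 and 2 on the log2 scale were recovered for 65.7%, 92.5% and 100% of the changed genes. The labels do not say which wild-type column is of which age, so no sample was matched to a wild-type column.

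Named genes were the 9 members, up to 3 higher and 2 lower genes with the smallest adjusted p per list, the 2 most abundant of each cell marker list, and the 3 closest profiles to Myog, Runx1 and Ncam1. Others are said in the text to have been named after their values were seen, as were Myod1, Myf6, Ankrd2, Cdkn1b, Cdkn1c, Gadd45b, Gadd45g, Hdac5, Ankrd23, Dach1, Pax7, Chrng, St8sia2, St8sia4, Fgfr4 and Cntn1. The same holds for Igfn1, Emr1, Mpeg1, Itgb2, Vcam1, Cdh15, Calcr, Tead1, Yap1, Axl, Ctgf and Cyr61. The members and lists were chosen with earlier results of these data known. Alternatives were other pseudocounts, filters and scalings, the most abundant transcript, no trend, and each library left out. The pair wt1 and wt2 and the pair wt3 and wt4 were also left out in turn, and no other pair was.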

Additional observations from a re-analysis of the deposited data

Results flagged for a closer look

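Hdac9 in wt2, at 2.39 RPKM, lay far from the other wild-type libraries, which were between 1.49 and 1.55 RPKM. The gap passed Dixon's 95% critical value for 4 samples. Of 18 groups checked, this was 1, and chance gives about 1 in 20. Without wt2 the log2 fold change of Hdac9 was 0.93 in place of 0.78.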

How the results depend on the processing

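Myog, Runx1, Hdac4, Hdac9, Gadd45a, Ncam1 and Cdkn1a stayed higher past the threshold under every alternative that gave them a value (Runx1 had none at a mean of at least 1 RPKM or with its most abundant transcript alone). Their log2 fold changes ranged from 0.96 to 1.9, 1.01 to 2.63, 0.35 to 0.53, 0.56 to 0.93, 1.38 to 1.82, 1.9 to 2.83 and 1.68 to 2.59. Over all genes, centring called 2758 lower, and quantile normalization called 2644 higher and 3056 lower. Of the related genes, 23 and 28 were then lower. The cause was not tested.

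Some values near 0 changed sign. Ankrd1 was at -0.05 centred, -0.04 with quantile normalization, -0.18 without wt3 and wt4, and between -0.25 and 0.37 with 1 library left out. Musk was at -0.05, -0.06, -0.19 and between -0.03 and 0.18 in the same order, and Mdm2 at -0.09 centred and -0.12 with quantile normalization. Quantile normalization gave -0.01 for Hdac5 and -0.04 for Ankrd23. Without wt1 and wt2, Fbxo32 was at 0.07, Gadd45g at 0.37 (-0.62 without wt3 and wt4, past the threshold) and Ankrd1 to Ankrd23 at 0.05. With 1 library left out, Gadd45g lay between -0.38 and 0.06 and Ankrd1 to Ankrd23 between -0.47 and 0.16. Dach2 transcript NM_001142570 was at -0.09 under both scalings, -0.02 without wt1 and wt2, and between -0.04 and 0.2 with 1 library left out. The Runx1 shares, in percentage points with 1 library left out, ran from -12.8 to 5.19 for NM_001111023, from -2.66 to 10.8 for NM_001111021 (-0.858 without wt3 and wt4) and from -1.21 to 4.8 for NM_009821 (-4.81 without wt1 and wt2).

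No paired analysis was possible because the wild-type columns could not be matched to numbered samples. The alternatives for ratios, shares and transcripts were chosen after seeing the data. In the library with the fewest for each, Myog, Ankrd1 and the Runx1 transcript NM_001111021 had an estimated 23, 24 and 2 reads.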
